A study of Sus scrofa with 2 samples.

Results

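Isolated transcribed regions are stretches of the pig genome that were covered by RNA reads and lay at least 50 kb from the next such stretch on both sides. To find them, the aligned reads of both libraries were pooled, any 2 reads that started 200 bases or less apart were put together, and a stretch of 20 or more pooled reads was kept as a region. Of 75535 kept regions, 1678 were isolated. They were chosen by the measured positions and pooled numbers of reads, which are therefore given as a description.

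RNA was selected for poly(A) tails and sequenced from 2 cultures of embryonic pig cells, with 1 library each and no replicates. Primordial embryonic germ cells (pEGC) grew as colonies on inactivated STO feeder cells, a mouse fibroblast line, in medium with the growth factors LIF and SCF (10 ng/ml each) and bFGF (3 ng/ml), from hindgut or mesonephros tissue taken between days 17 and 24 of gestation. The other culture held embryonic fetal fibroblast cells (pFF), whose medium the labels do not describe; the label text on tissue and days is the same for both cultures. Both came from Danish Landrace x Yorkshire crosses per the sample labels, while the series title speaks of mini pigs, and no treatment was given. Whether RNA came from 1 embryo or from several was not given in the sources used here, and reads of the mouse feeder cells that align to pig sequence cannot be told apart from pig reads.

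Most genes of a mammal lie in gene-rich stretches, and a spliced gene appears in RNA reads as a row of neighbouring exons. A transcribed stretch with no neighbour can be a gene with 1 exon, a noncoding RNA transcribed between genes, or a copy of a processed RNA inserted elsewhere in the genome. It can also be part of a longer transcript whose other parts had too few reads to be kept. Which of these applies to any region was not tested. The genome build of the files is not given in the sources used here, and reads reached beyond the last gene of the Sscrofa11.1 gene table on 6 of the 19 chromosomes, so no gene was named, no sequence was read and the cell types were not checked against marker genes. Coordinates are those of the deposited files, with the first base counted as 1.

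Each library file listed 14324517 reads of 34 bases, of which 12910575 (pEGC) and 13672805 (pFF) lay in kept regions. Levels are RPM, the reads of a region per 1000000 reads in kept regions of that library, and 3 reads correspond to 0.232 RPM in pEGC and 0.219 RPM in pFF. A block of 3 regions on chromosome 6 took 11.5% of all pEGC reads and 30.6% of all pFF reads, which under this scaling lowers the pFF levels of all other regions more than their pEGC levels. A scaling by the trimmed mean of M-values, which is not drawn by that block, would divide each ratio of pEGC over pFF by 1.71.

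At the settings used, the isolated regions were narrow, and most of them held few reads. Their width ran from 34 bases to 17066 bases with a median of 519 bases, against a median of 836 bases for the other 73857 kept regions. Pooled reads ran from 20 to 48412 with a median of 50, and the median of the other regions was 57. The median level was 1.86 RPM in pEGC and 1.76 RPM in pFF. In each class of read number the isolated regions had the smaller median width, for example 342 bases against 629 bases at 20 to 29 reads and 2847 bases against 3894.5 bases at 1000 reads or more. Together the isolated regions held 306398 pEGC reads and 281285 pFF reads, which is 2.37% and 2.06% of the reads in kept regions. A small number of regions held most of these reads: the 98 regions with at least 1000 reads took 72.4% of them, and the 10 with the most reads took 31.9%.

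**Figure D1:**
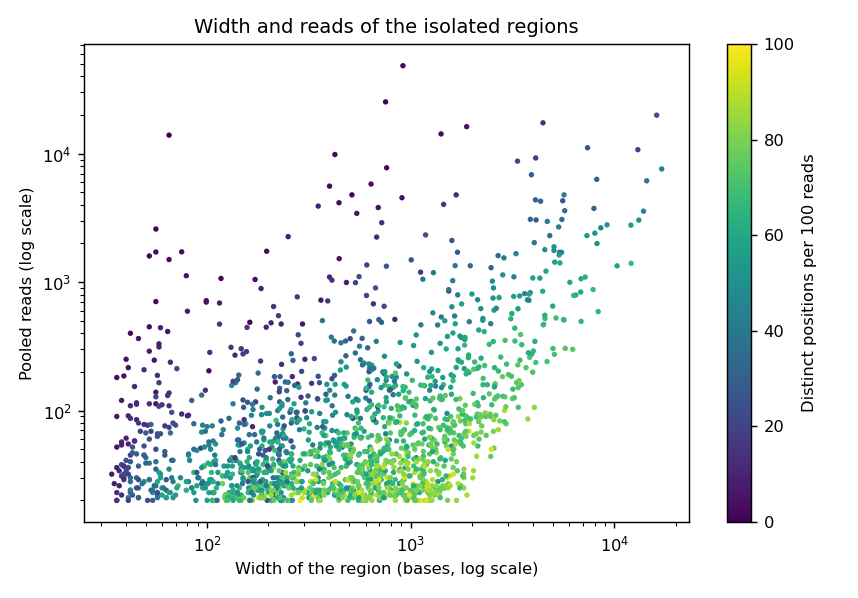
Width (bases, log scale) against pooled reads (log scale) for the 1678 isolated regions, 1 point per region, coloured by distinct positions per 100 reads. Most points lie near the floor of 20 reads, and a group of dark points under 1000 bases wide with over 1000 reads stands above the rest.

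The regions lay far from other kept regions, with sparse reads around most of them. The distance to the nearer neighbour had a median of 94.0 kb and reached 2266 kb, and 26 regions had 1 Mb or more free on both sides. Within 50 kb of an isolated region, the median number of reads in no kept region was 33 in pEGC and 21 in pFF. Over both libraries this median was 67 reads. The mean over isolated regions was 936 reads per Mb, against 953 reads per Mb over all sequence outside kept regions. No read lay within 50 kb of 35 of the 1678 regions, and fewer than 10 lay there for 254. Around the other kept regions the medians were 169 pEGC reads, 68 pFF reads and 247 reads over both libraries. By these medians the surroundings of isolated regions were emptier than those of the others. Only the mean was close to the average outside regions. The rule lets no kept region lie within 50 kb of an isolated one, while each of the others has a kept region nearer than that. How much of the difference comes from this selection was not tested.

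Isolated regions also followed one another. There were 339 runs of 2 or more in a row, with 847 regions, while 831 had no isolated region next to them. A gap of 50 kb or more counts for the regions on both of its sides, so the rule itself favours such runs. The number of runs to be had from the rule alone was not computed. The longest run was 7 regions over 4.36 Mb of chromosome 8, from 19006592 to 23369680. These 7 regions had from 23 to 4152 pooled reads and were from 35 bases to 4550 bases wide. All 7 had reads from both libraries, and 1 of them was at least 4-fold higher in pFF.

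Every chromosome held isolated regions, between 36 on chromosome 12 and 242 on chromosome 1. Per 10 Mb of sequence up to the highest read position, the number ran from 5.27 on chromosome 6 to 9.48 on chromosome 17. As a share of kept regions it was lowest on chromosome 12, at 1.02%, and highest on the X chromosome, at 4.33%. The X chromosome had 19.3 kept regions per Mb, the lowest density of all 19 chromosomes, and chromosome 12 had 61.6 per Mb, the highest. The rule for isolation makes the share move with this density.

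Width went together with how the reads were placed. The 105 isolated regions of 3000 bases or more had between 39.7% and 58.7% of their reads on strand F, and 104 of them lay between 40% and 60%. The protocol describes no step that marks the strand of the RNA, so strand here describes the placement of reads and not the direction of a transcript. Over all isolated regions the exact 95% interval of the F share left out 50% in 707 regions, or 42.1%, against a background of 35.1% of all kept regions. This share was 82.7% in the 196 isolated regions under 100 bases, 59.9% at 100 to under 300 bases, 14.4% in the 382 regions of 1000 to under 3000 bases and 19.05% in those of 3000 bases or more. In the other kept regions of these 4 widths it was 66.7%, 54.2%, 24.1% and 32.6%, so the isolated regions stood above the others when narrow and below them from 1000 bases on. The intervals count each read as independent. With each position counted once the share was 22.1% over all isolated regions and 18.8% over all kept regions. Under 100 bases it was then 31.1% against 30.9% of the others, at 1000 to under 3000 bases 9.16% against 12.1%, and at 3000 bases or more 37.1% against 31.4%, so the excess of the narrowest class was no longer seen.

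Reads on 1 strand alone were found in 52 isolated regions, or 3.10%, and in 337 of the other kept regions, or 0.456%. The isolated regions were narrower, and at like width the contrast was smaller. Under 100 bases the share was 18.4% against 8.61% of the other regions, and at 100 to under 300 bases 3.85% against 1.24%. Of these 52 isolated regions, 36 were under 100 bases wide and 28 had fewer than 30 reads, and 45 had reads from both libraries. A region of 36 bases on chromosome 1, from 53629119 to 53629154, had 46 pEGC reads and 6 pFF reads, all on strand F, at 3 positions. Another of 49 bases on chromosome 2, from 64133299 to 64133347, had 38 pEGC reads and 15 pFF reads, all on strand F. One of 142 bases on chromosome 4, from 124749888 to 124750029, had 40 pEGC reads and 14 pFF reads on strand F at 30 positions. These 3 are the first by chromosome and start among the regions with at least 50 reads and reads on 1 strand alone; over all 52 the reads ran up to 594. Among the 316 isolated regions with at least 50 reads in each library, 23 had at least 90% of the pEGC reads on 1 strand and 28 had that share of the pFF reads. In 16 regions both libraries passed this limit on the same strand, and in 0 regions on opposite strands.

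Repeated positions were most frequent in the narrowest regions. Distinct combinations of start and strand were 62.5 per 100 reads in the median isolated region and 65.7 in the median of the others. The median was 24.9 in isolated regions under 100 bases, 54.1 at 100 to under 300 bases, 68.2 at 300 to under 1000 bases 71.4 at 1000 to under 3000 bases and 59.2 at 3000 bases or more. A narrow region has few possible starts, so the positions were also set against the number that the same reads spread evenly over all possible starts would use. By this measure the regions under 100 bases used 54.2% of that number and those of 1000 to under 3000 bases 72.3%, against 58.4% and 72.9% in other regions of the same widths. In the median region under 100 bases the most used position alone held 27.5% of the reads, against 19.05% in the other regions of that width.

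The most used position was in part shared by the libraries. Of the 316 isolated regions with at least 50 reads in each library, it was identical in start and strand in 95. That was 37 of 72 regions under 300 bases, 24 of 83 regions of 300 to under 1000 bases and 34 of 161 regions of 1000 bases or more. In the last of these classes that position held a median of 2.98% (pEGC) and 3.85% (pFF) of the reads, against 19.2% and 21.9% under 300 bases; the same was not computed for other kept regions. The distance between reads on opposite strands separated narrow from wide as well. In isolated regions of 1000 bases or more, a start on strand F most often had a start on strand R 145 bases downstream in pEGC and 175 bases downstream in pFF, at 14.7% and 15.2% of the F positions and at the same distances as in the other kept regions. With the read length added these are fragments of 179 and 209 bases. In isolated regions under 300 bases, the most frequent distance of 75 bases or more was 95 bases in both libraries, with 3.49% and 2.78% of F positions, and the width of these regions limits the distances they can show.

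The isolated region with the most reads lay on chromosome 9 from 3807618 to 3808532, a width of 915 bases, with 546 kb free on the left and 856 kb on the right. It had 29782 reads in pEGC (2307 RPM) and 18630 in pFF (1363 RPM), a ratio of 1.69 (exact 95% interval 1.66 to 1.72). These reads used 1008 distinct positions, and 4 reads of both libraries lay within 50 kb around it. With each position counted once the log2 ratio was -0.39 and with the trimmed mean of M-values -0.01, so its direction depended on the way of counting and scaling.

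The narrowest of the 10 regions with the most reads covered 65 bases of chromosome 11, from 36304876 to 36304940, with 2015 kb free on the left and 2866 kb on the right. It had 5933 reads in pEGC (459.5 RPM) and 8014 in pFF (586.1 RPM), a pFF to pEGC ratio of 1.28 (1.23 to 1.32). All 13947 reads used 35 of 64 possible positions, and the most used one of each library held 34.1% (pEGC) and 30.9% (pFF) of its reads. Strand F took 47.4% in pEGC and 15.4% in pFF, so the libraries used the same small site with different strand shares. Within 50 kb of it lay 1 read.

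In all, 7 isolated regions were under 100 bases wide and had at least 1000 reads, and all 7 had at least 251 reads in each library. A region of 56 bases on chromosome 14, from 97258459 to 97258514, was the one of these 7 that differed 4-fold, with 366 reads in pEGC (28.3 RPM) and 2226 in pFF (163 RPM), 5.74-fold higher in pFF (5.14 to 6.43). Its reads used 30 of 46 possible positions, and with each position counted once its log2 ratio of pEGC over pFF went to -0.84. The second deepest isolated region, 752 bases on chromosome 13 from 138046306 to 138047057, had 3881 pEGC reads (300.6 RPM) and 21437 pFF reads (1568 RPM), 5.22-fold higher in pFF (5.04 to 5.40). A single position held 32.2% of its pFF reads and 10.7% of its pEGC reads, strand F took 91.3% and 60.5%, and with positions counted once the log2 ratio shrank to -0.54.

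Wide isolated regions looked different. The widest, 17066 bases on chromosome 15 from 8829551 to 8846616, had 5182 reads in pEGC (401 RPM) and 2424 in pFF (177 RPM), a ratio of 2.26 (2.16 to 2.38), with 49.97% of the reads on strand F and 3266 positions in use. The next, 16121 bases on the X chromosome from 36683231 to 36699351, had 12824 reads in pEGC (993 RPM) and 7122 in pFF (521 RPM), a ratio of 1.91 (1.85 to 1.96). A stretch of 14399 bases on chromosome 1 from 236107924 to 236122322 had 3848 and 2303 reads, 298 RPM and 168 RPM, a ratio of 1.77 (1.68 to 1.86). These 3 regions had their most used position at 1.06%, 0.959% and 0.780% of the pEGC reads. Like every kept region, they were unbroken at the join distance of 200 bases by the rule. None of them differed 4-fold. With the trimmed mean of M-values their log2 ratios were 0.41, 0.16 and 0.05.

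Next, the level of the isolated regions was compared between germ cells and fibroblasts. To count as higher in a library, a region needed an RPM ratio of 4 or more, 50 or more reads in that library and an exact 95% Clopper-Pearson interval of the ratio that stayed past 2. The rule measures size in 2 libraries. The intervals cover counting error only, since the reads carry no molecular identifiers and may be copies of 1 molecule, and no p-value is given. Of 674 isolated regions with at least 50 reads in 1 library, 113 (16.8%) passed toward pEGC and 135 (20.0%) toward pFF. The background over all 32206 kept regions with as many reads was 20.5% higher in pEGC and 7.15% higher in pFF. Among isolated regions the calls were thus 54.4% in favour of pFF. With the trimmed mean of M-values 68 were higher in pEGC and 179 in pFF, or 72.5% in favour of pFF, and the backgrounds were 13.0% and 10.7%. Under the first scaling, 48 of the 113 and 65 of the 135 calls were regions of 50 to under 100 pooled reads. Such a region enters through 50 reads in 1 library, so balanced regions of that class are left out. In the other kept regions that class held 2668 of 6493 calls toward pEGC and 722 of 2168 toward pFF.

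**Figure D2:**
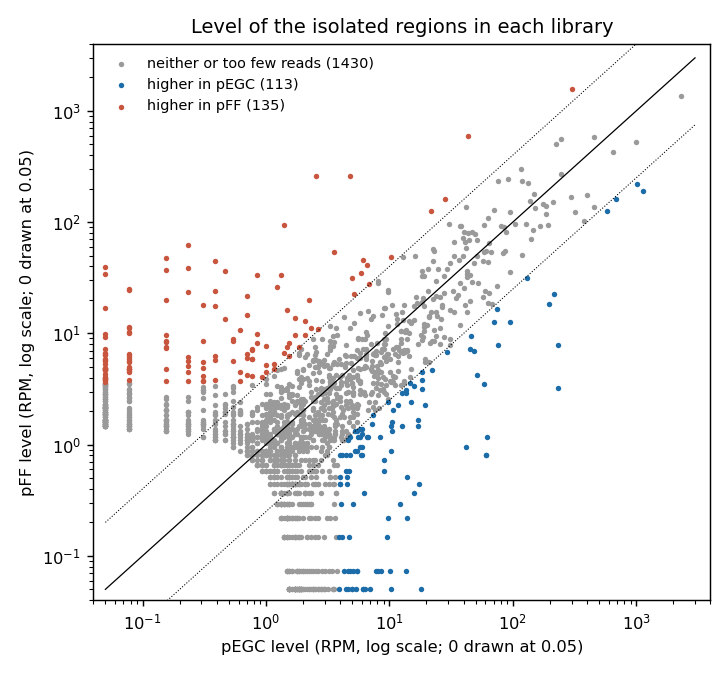
Level in pEGC against level in pFF (RPM, log scales, 0 drawn at 0.05) for the isolated regions, 1 point per region, with the line of equal levels and dotted lines at 4-fold. The 113 regions higher in pEGC and the 135 higher in pFF are coloured, and the pFF points reach to 0 pEGC reads over a wide range of levels.

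The share of regions higher in pFF rose with distance to the nearer neighbour. It was 5.66% of 21307 regions with a neighbour within 1 kb, 8.93% of 8626 regions at 1 to 10 kb, 11.9% of 1599 regions at 10 to 50 kb and 20.0% of the 674 isolated ones. The share higher in pEGC was 22.2%, 17.3%, 17.2% and 16.8% in the same classes. With the trimmed mean of M-values the pFF shares were 8.63%, 13.1%, 18.3% and 26.6%, and the pEGC shares 13.9%, 11.5%, 11.2% and 10.1%, so the order of the pFF shares was the same under both scalings. On the log2 scale the median pEGC to pFF ratio went from 0.86 within 1 kb to 0.26 in the isolated regions. All of these classes include regions of 50 to under 100 pooled reads, of which only the unbalanced ones entered. With 1 library per culture these are descriptions of 2 libraries.

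**Figure D3:**
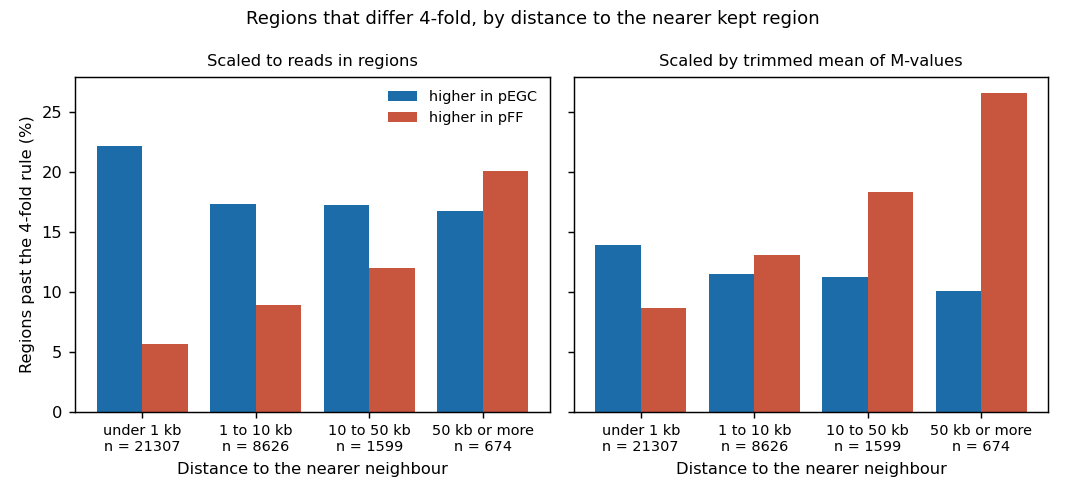
Percent of kept regions with enough reads that passed the 4-fold rule, by distance to the nearer kept region, scaled to reads in regions (left) and by the trimmed mean of M-values (right); n is the number of regions in each class. The bars for regions higher in pFF rise from 5.66% to 20.0% on the left and from 8.63% to 26.6% on the right. Regions of 50 to under 100 pooled reads are included, and only the unbalanced ones of these entered.

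The rise was seen in wide regions and not in narrow ones. Under 300 bases, 14.3% of regions with a neighbour within 1 kb were higher in pFF and 11.9% of the isolated ones. At 300 to under 1000 bases the shares were 8.05% and 20.7%, at 1000 to under 3000 bases 4.12% and 26.8%, and at 3000 bases or more 3.25% and 17.3%. By read number, 65 of 174 isolated regions with 50 to under 100 reads (37.4%, against 10.3% of the other regions) were higher in pFF. The 174 entered through having 50 reads in 1 library, so balanced regions of that class are left out and nothing is read from its share; 27.6% were higher in pEGC. The classes of 100 to under 200, 200 to under 1000 and 1000 reads or more had 30 of 204 (14.7%, others 5.25%), 33 of 198 (16.7%, others 6.05%) and 7 of 98 (7.14%, others 7.49%). Among the classes from 100 reads on, the share was thus above that of the other regions in each except the last. Isolation was judged on the pooled map, and how the pooling of 2 unlike libraries bears on these shares was not tested.

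Near absence of pEGC reads was more frequent than in the background, and near absence of pFF reads was close to it. At most 3 pEGC reads were found in 65 of the 674 isolated regions, or 9.64%, against a background of 2.57%, and 28 of these had 0 pEGC reads. At most 3 pFF reads were found in 29, or 4.30%, against a background of 4.22%, and 12 of these had 0. A count of 0 allows up to 3 reads. Regions with so few reads in 1 library passed the minimum of 50 through the other. Of the 65, 43 had 50 to under 100 pooled reads, as had 19 of the 29. At 100 to under 200 reads the pEGC share was 5.39% against 1.91% of other regions, and the pFF share 4.41% against 2.67%. At 200 to under 1000 reads these were 5.56% against 1.38% and 0.505% against 1.06%. At 1000 reads or more, 0 isolated regions had so few in either library. Without the minimum of 50 reads, 118 of the 1678 isolated regions (7.03%) had 0 pEGC reads and 74 (4.41%) had 0 pFF reads, against 1.18% and 3.04% of the other regions.

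The 2 groups of differing regions were alike in shape. The median width was 1292 bases for the 113 higher in pEGC and 1227 bases for the 135 higher in pFF, while the 426 regions with enough reads that passed in neither direction had a median of 724 bases. Regions of 1000 bases or more made up 65 of the 113 and 75 of the 135. The median number of distinct positions was 60.9 and 61.2 per 100 reads, against 43.9 in the 426. Against an even spread over all possible starts, the medians were 65.0%, 64.0% and 54.0%. The F share interval left out 50% in 31.0% and 37.0% of the differing regions and in 52.8% of the 426. Both measures move with read number and width, in which the groups differed. At least 1000 reads were held by 13 of the 113, 7 of the 135 and 78 of the 426, and 21, 19 and 119 were under 300 bases. On the log2 scale the median pEGC to pFF ratio was 3.11 in those higher in pEGC and -4.35 in those higher in pFF.

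Sparse reads around a differing region came mostly from the same library as the region itself. These flanking reads were counted in no region and played no part in the 4-fold rule. Within 50 kb of the 113 regions higher in pEGC there were 9351 pEGC reads and 1432 pFF reads, so 86.7% were from pEGC (exact 95% interval 86.1 to 87.4). Within 50 kb of the 135 regions higher in pFF there were 2192 pEGC reads and 8306 pFF reads, or 20.9% from pEGC (20.1 to 21.7). Over all isolated regions the share was 65.6%. The flank held more pEGC than pFF reads at 106 of the 113 regions, and more pFF than pEGC reads at 114 of the 135. Over all 1678 isolated regions, it held more pEGC reads at 1097 and more pFF reads at 508. The same was not computed around differing regions that were not isolated. Flanks of neighbouring isolated regions can overlap, so some reads were counted at more than 1 region.

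These flanking reads thinned out with distance and kept their library. At regions higher in pFF, pFF reads fell from 1.70 per kb and region within 2 kb to 0.399 per kb at 40 to 50 kb, while pEGC reads stood at 0.235 and 0.145 per kb. The pEGC share was 12.2% within 2 kb and 26.7% at 40 to 50 kb. At regions higher in pEGC, pEGC reads went from 1.87 to 0.642 per kb and pFF reads from 0.277 to 0.120 per kb, with a pEGC share of 87.1% and 84.3%. Over each set, then, sparse reads of the region's own library outnumbered the others out to the end of the 50 kb examined.

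**Figure D4:**
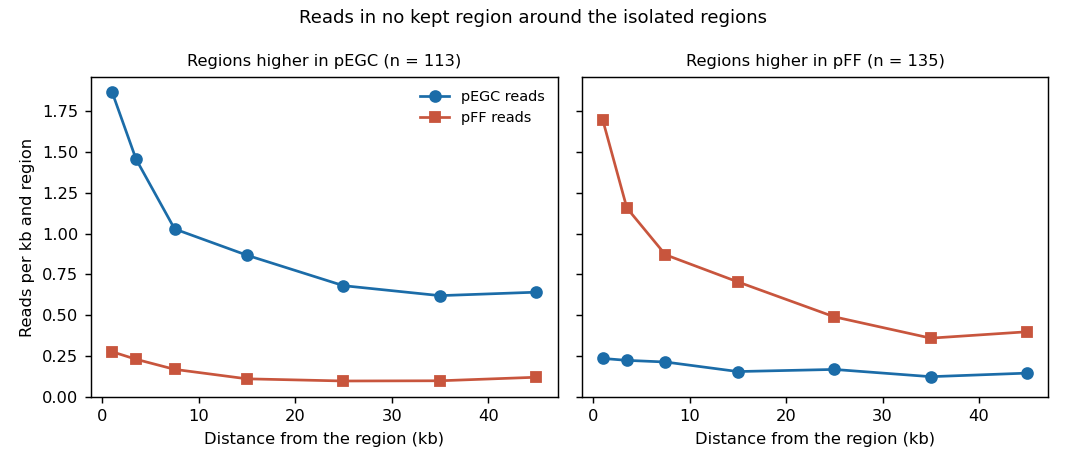
Reads in no kept region per kb and region (both sides added) against distance from the isolated region in kb, for the 113 regions higher in pEGC (left) and the 135 higher in pFF (right). The library that is higher in the region is also the higher one at every distance drawn, and falls from 1.87 to 0.642 (left) and from 1.70 to 0.399 (right) reads per kb.

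Among the 10 isolated regions with the most reads, 3 were higher in pEGC. A region of 4458 bases on chromosome 6, from 108924998 to 108929455, had 14765 reads in pEGC (1144 RPM) and 2624 in pFF (192 RPM), 5.96-fold higher in pEGC (5.72 to 6.21). On chromosome 15, 1881 bases from 49647143 to 49649023 had 13202 and 3034 reads, 1023 RPM and 222 RPM, a ratio of 4.61 (4.43 to 4.80). A region of 7376 bases on chromosome 16, from 35373099 to 35380474, had 8936 and 2193 reads, 692 RPM and 160 RPM, a ratio of 4.32 (4.12 to 4.52). All 3 fell below 4-fold with the trimmed mean of M-values, at log2 ratios of 1.80, 1.43 and 1.34, and with positions counted once at 1.00, 0.10 and 0.85. The first and the third had 49.7% and 49.8% of their reads on strand F and 13.3 and 26.4 distinct positions per 100 reads, and the second had 56.6% and 4.51.

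The remaining 4 of these 10 did not differ 4-fold. On chromosome 15, 1408 bases from 119267816 to 119269223 had 8441 reads in pEGC and 5809 in pFF, a ratio of 1.54 (1.49 to 1.59) that turned to a log2 ratio of -0.45 with positions counted once. The most used combination of start and strand, which was not the same in both libraries, held 29.2% of its reads in pEGC and 10.0% in pFF. On chromosome 7, 13030 bases from 36987623 to 37000652 had 3157 and 7590 reads and were 2.27-fold higher in pFF (2.18 to 2.37). The left neighbour of this region was 50.067 kb away, just past the limit. On chromosome 1, 424 bases from 232642681 to 232643104 had 2904 and 6952 reads and were 2.26-fold higher in pFF (2.16 to 2.36), with the same most used position in both libraries. The X chromosome region of 16121 bases described above is the last of the 4.

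The widest isolated regions that differed were singled out after their values were seen. On chromosome 8, 13891 bases from 76523264 to 76537154 had 33 reads in pEGC (2.56 RPM) and 3538 in pFF (259 RPM), 101-fold higher in pFF (72.0 to 147). On chromosome 9, 13176 bases from 70464226 to 70477401 had 2996 reads in pEGC (232 RPM) and 44 in pFF (3.22 RPM), 72.1-fold higher in pEGC (53.6 to 99.5). Each library filled the region in which it was higher, with reads in all 60 of 60 equal bins, and the other library had reads in 15 bins on chromosome 8 and 20 bins on chromosome 9. Coverage was uneven in both: the first 3000 bases held 57.9% of the pEGC read starts on chromosome 9 and 47.6% of the pFF read starts on chromosome 8, and the last 3000 bases 11.4% and 32.6%. Strand F took 48.6% and 49.5%. Within 50 kb around them lay 4 reads on chromosome 9, all from pEGC, and 5 reads on chromosome 8, all from pFF.

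**Figure D5:**
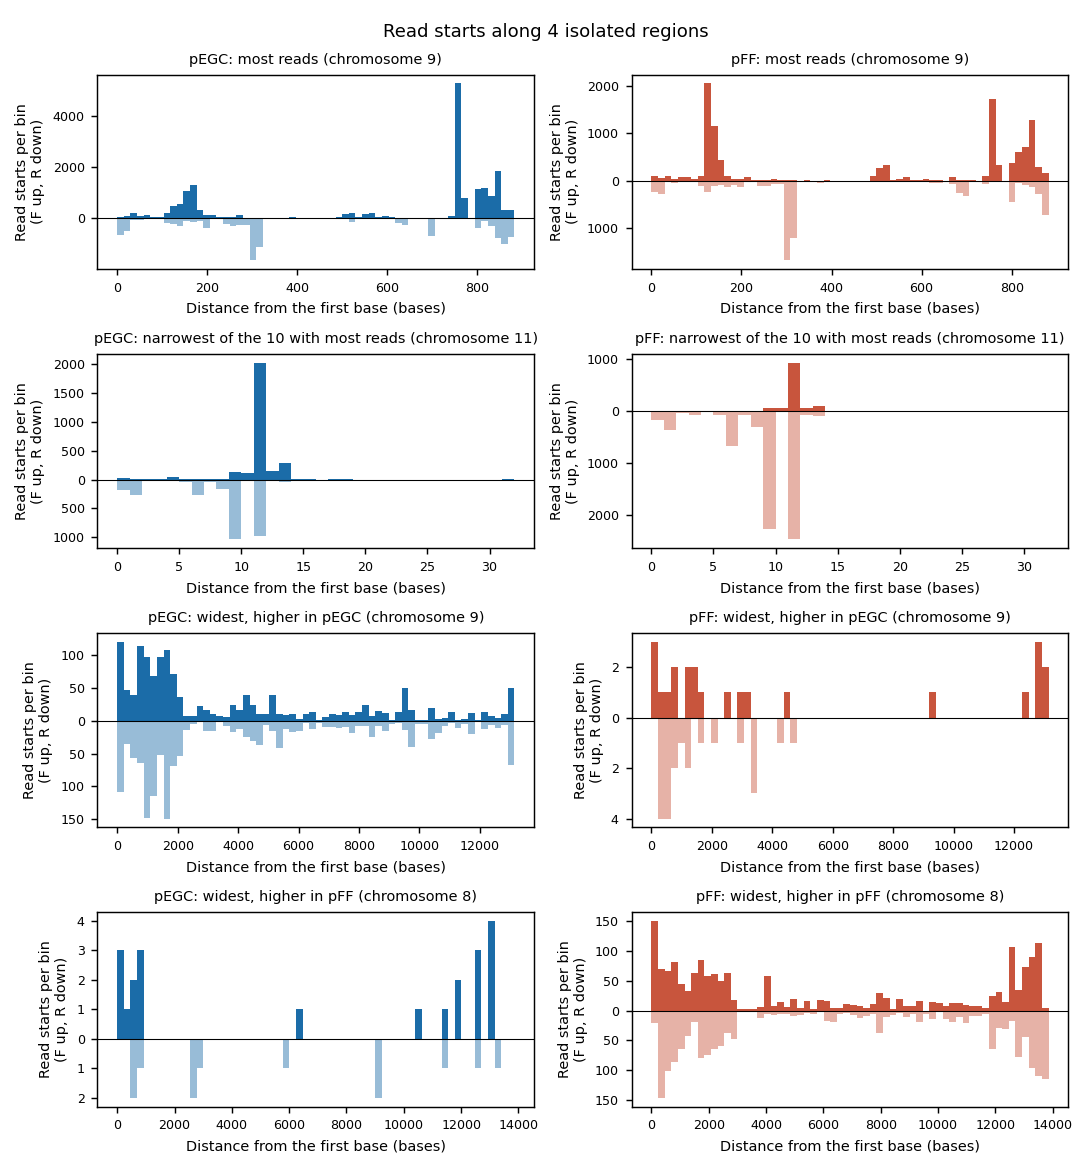
Read starts per bin along 4 isolated regions (rows) in pEGC (left) and pFF (right), with strand F upward and strand R downward, against distance from the first base of the region in bases; the vertical scales differ between panels. The region with the most reads and the one of 65 bases show a few tall bins. Those of 13176 and 13891 bases have reads in every bin in the library where they are higher, which the join rule largely fixes. They have 44 and 33 reads in the other library.

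The largest ratios rest on very few reads in the lower library, and by the rule a count of 0 ranks as 3 reads. A region with 0 reads in the lower library thus ranks below one with 1 or 2 there and as many in the other. Among isolated regions of 200 to under 1000 pooled reads, 3 had 0 pEGC reads and 1 had 0 pFF reads. They are not among the largest ratios listed here. In favour of pFF, 4068 bases on the X chromosome from 98812041 to 98816108 had 345 reads in pFF (25.2 RPM) and 1 in pEGC, a ratio of 326 (58.1 to 12904). On chromosome 9, 887 bases from 96120337 to 96121223 had 338 and 1 reads (319-fold, 56.9 to 12643). On chromosome 1, 740 bases from 269748967 to 269749706 had 647 and 2 reads (305-fold, 84.2 to 2528). These 3 intervals overlap, so the order within them is not resolved.

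The other pair in favour of pFF differed in shape from one another. On chromosome 9, 1536 bases from 45215153 to 45216688 had 851 pFF reads and 3 pEGC reads (268-fold, 91.3 to 1301), with 4.92% of all reads on strand F and 9.60 distinct positions per 100 reads. With positions counted once its log2 ratio was -5.38. On chromosome 17, 2257 bases from 48432556 to 48434812 had 503 and 2 reads (237-fold, 65.4 to 1966), with 43.4% on strand F and 53.1 distinct positions per 100 reads. Flanking reads numbered 37 (pEGC) and 23 (pFF) around the first and 26 and 121 around the second.

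In favour of pEGC, the 5 largest ratios by this rule had 1 pFF read each. Regions with 0 pFF reads ranked lower because 0 stands for 3 reads. On chromosome 1, 2266 bases from 85582839 to 85585104 had 177 pEGC reads (13.7 RPM), a ratio of 187 (33.2 to 7445). A site of 64 bases on chromosome 14, from 47531207 to 47531270, had 130 pEGC reads (138-fold, 24.3 to 5479), of which 99.2% lay on strand F and 39.2% at 1 position. The remaining 3, on chromosome 15 from 106550375 to 106551434, chromosome 14 from 70524032 to 70528078 and chromosome 11 from 65830750 to 65831358, had 110, 105 and 101 pEGC reads and ratios of 116, 111 and 107. Flanking pEGC reads numbered 144 at the region on chromosome 1, and 149, 151 and 118 at these 3, against 2 to 4 pFF reads. At the site of 64 bases they numbered 3, with 0 pFF reads. The site of 64 bases thus had almost no reads around it, and the other 4 lay among sparse pEGC reads.

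The 3 regions with the widest free sequence on both sides were all under 100 bases. A site of 43 bases on chromosome 4, from 25327073 to 25327115, had its neighbours 2266 kb and 2383 kb away, with 37 pEGC reads and 15 pFF reads at 13 positions. The chromosome 11 site of 65 bases came next. A site of 42 bases on chromosome 15, from 39185679 to 39185720, lay 2418 kb and 2007 kb from its neighbours. It had 0 pEGC reads and 87 pFF reads, at least 21.8-fold higher in pFF by the lower end of the exact interval. With 0 set to 3 reads the ratio is 27.4, which is not a lower bound. With positions counted once its log2 ratio of pEGC over pFF was -2.50. Flanking reads numbered 2, 1 and 1 at these 3 sites.

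Each library was also mapped on its own with the same rules. The pEGC reads alone gave 57744 regions, of which 1516 (2.63%) were isolated, and the pFF reads alone gave 41991, of which 1875 (4.47%) were isolated. Of the 1678 regions of the pooled map, 928 held an isolated region of the pEGC map and 921 one of the pFF map. The pooled isolated regions thus took in 61.2% of those isolated in pEGC and 49.1% of those isolated in pFF.

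The limits of the rule cut through a continuous range. Just inside the distance limit, 757 bases on chromosome 4 from 107954915 to 107955671 had a neighbour at 50.043 kb with 33 pEGC and 93 pFF reads, and 749 bases on chromosome 12 from 32713320 to 32714068 had one at 50.047 kb with 15 and 19 reads. Just outside, 245 bases on chromosome 2 from 117901236 to 117901480 had one at 49.945 kb with 5 and 19 reads, and 58 bases on chromosome 3 from 8870436 to 8870493 had one at 49.898 kb with 0 and 22 reads. Exactly 20 pooled reads were found in 62 isolated regions, the first in order being 444 bases and 576 bases on chromosome 1, from 111962077 to 111962520 and from 122507098 to 122507673, each with 20 pEGC reads and 0 pFF reads. There were 79 clusters of 19 reads as far from any kept region, such as 773 bases on chromosome 1 from 46753578 to 46754350 with 17 pEGC and 2 pFF reads, and 481 bases from 54692705 to 54693185 with 0 and 19.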

How the data were processed

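Per the labels' protocols, RNA went through 2 rounds of poly(A) selection and DNase treatment, was fragmented by hydrolysis and copied from random hexamers, with no strand-marking step described. The authors' deposited files list 1 aligned read per line with chromosome, start, end and strand, and keep repeated lines. The aligner, build, filters and handling of reads with several matches were not given in the sources used here. The equal line number of both files is unexplained, so line numbers may not be the true depths. Reads were counted per region in Python 3.11.15 with numpy 2.4.6, pandas 2.3.3 and scipy 1.17.1. Ratios have exact 95% intervals, and 0 reads were replaced by 3 for a ratio. Regions named are those with the most reads, largest ratios, largest width, widest free sequence, and, with at least 50 reads, lowest share of distinct positions and F share farthest from 50%, and those at the limits, ties by chromosome and start. The regions and rules were chosen with earlier results of these data known. Region building and the 4-fold rule were tested on simulated data. Alternatives varied the join distance, minimum, isolation distance, scaling, fold and counting of positions.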

Additional observations from a re-analysis of the deposited data

How the results depend on the processing

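With 12 alternatives to the building, scaling and calling of regions, the share of isolated regions higher in pFF stayed above its background in all 12 (17.5% to 29.4%, backgrounds 6.53% to 12.4%), and the share higher in pEGC was below its background in 11, the exception being a minimum of 50 pooled reads. The number of isolated regions was 3105 at 25 kb and 785 at 100 kb, and stayed within 1.5 times of 1678 for other join distances, minimums, positions counted once and either library alone. Their median width, 519 bases, was 261.5 and 1323.5 bases at join distances of 100 and 500 bases. It was 326 and 1076 bases at minimums of 10 and 50, and 498 and 519 bases at 25 and 100 kb. The median of distinct positions per 100 reads, 62.5, lay between 59.2 and 65.9 under these settings. Regions higher in pEGC and pFF numbered 50 and 74 with a minimum of 10 pooled reads, 304 and 262 with a minimum of 50, 210 and 210 at 25 kb, 59 and 64 at 100 kb, and 41 and 85 with positions counted once. Those higher in pEGC numbered 68 with the trimmed mean of M-values, 68 with the median of ratios and 219 at 2-fold. The pEGC share of the reads of isolated regions, 52.1%, was 49.1% and 43.0% at join distances of 100 and 500 bases, 50.4% and 46.7% at minimums of 10 and 50, 50.6% and 49.3% at 25 and 100 kb, and 54.2% with positions counted once, so no direction is read from it. Of 28 named ratios, 20 left their counting interval with positions counted once and 13 with the trimmed mean of M-values. The cause of these changes was not tested. Positions counted once saturate in deep, narrow regions. No paired analysis was possible because each culture had 1 library. Depth limits regions near 20 reads, whose ratio is loosely bounded.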
